A study of Mus musculus with 16 samples.

Results

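The neurotrophin genes *Bdnf* and *Ntf3*, the secreted factor gene *Ndnf*, the receptor genes *Ntrk2*, *Ntrk3* and *Ngfr*, and the sorting receptor gene *Sort1* were examined in whole testes of newborn mice. These genes were picked by symbol from the deposited table of expression levels, with earlier results from the same table already known, and 7 of 7 symbols were found among its 35983 genes. The choice therefore rests on the levels given here, which are a description and carry no test. The study had 16 samples in 4 groups of 4, all on a mixed 129Sv and C57Bl/6J background. At postnatal day 1 (P1), controls were *Lrh1* flox/- without Cre and mutants were *Lrh1* flox/-; *Nanos3-Cre*, a Cre that acts in germ cells. At postnatal day 3 (P3), controls were *Lrh1* flox/flox without Cre and mutants were *Lrh1* flox/flox; *Dhh-Cre*, a Cre that acts in Sertoli cells. P1 controls thus already lack 1 *Lrh1* allele in every cell, whereas P3 controls carry only floxed alleles. *Dhh* is also known as a Schwann cell gene, so this driver is not limited to Sertoli cells. The labels do not say whether a sample was 1 animal or a pool.

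Levels are group means of FPKM (read fragments scaled to gene length and library size) as deposited, with no value for single samples. Overlap between groups and the spread between testes could therefore not be examined, and no test across samples was made. Mean normalized counts were also at hand for 699 genes at P3 and 4 genes at P1. Set beside FPKM and gene length, these came to 12.05 counts per FPKM and kilobase at P3, within 1% for 97.7% of the genes, and to 10.7 at P1. Each mean could thus be read as a count per library, out of 10607116 (P1 controls) to 12068484 (P3 mutants) in the average library of a group. The 95% intervals below come from these counts over 4 libraries, and they cover counting error only. *Nr5a2*, the targeted gene that encodes LRH1, had a mean of 81.5 counts per library in P3 controls and 43.3 in *Dhh-Cre* mutants, and 48.3 in P1 controls and 31.1 in *Nanos3-Cre* mutants. *Nr5a1*, which encodes the related receptor SF1, had means of 65.3 and 36.8 FPKM at P3 and of 58.7 and 68.8 FPKM at P1, in controls and mutants.

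Neurotrophins are secreted growth factors that are made as longer precursors. The mature forms bind Trk receptors, which are tyrosine kinases, while p75, the product of *Ngfr*, binds mature forms and, together with sortilin, the product of *Sort1*, the precursors. BDNF is the main ligand of TrkB, encoded by *Ntrk2*, and NT-3, encoded by *Ntf3*, of TrkC, encoded by *Ntrk3*. In the rat, NT-3 from Sertoli cells has been tied to the migration of mesonephric cells that surround the forming testis cords. NDNF is a secreted glycoprotein with fibronectin type III repeats that belongs to no neurotrophin family, and in humans variants of its gene occur in congenital hypogonadotropic hypogonadism.

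All of these genes had a higher mean in *Dhh-Cre* mutants than in controls at P3. The same contrast led to their choice, so nothing is read from this count. Of all genes that passed a minimum level, 50% lay above the median ratio at P3 and at P1, by definition. *Ndnf* differed most, at 6.04 against 1.01 FPKM, followed by *Ntrk3*, *Ntrk2* and *Bdnf*, which each had over 2 times the control mean, and by *Ntf3* and *Ngfr*, while *Sort1* differed little. At P1 the picture was mixed, with a higher mean in *Nanos3-Cre* mutants for 3 of the 7 genes and a lower one for the other 4, of which *Sort1* turned higher when the summed FPKM of the groups were set equal. The plot of levels by group shows that the receptor genes *Ngfr* and *Sort1* stood above the ligand genes in every group.

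**Figure D1:**
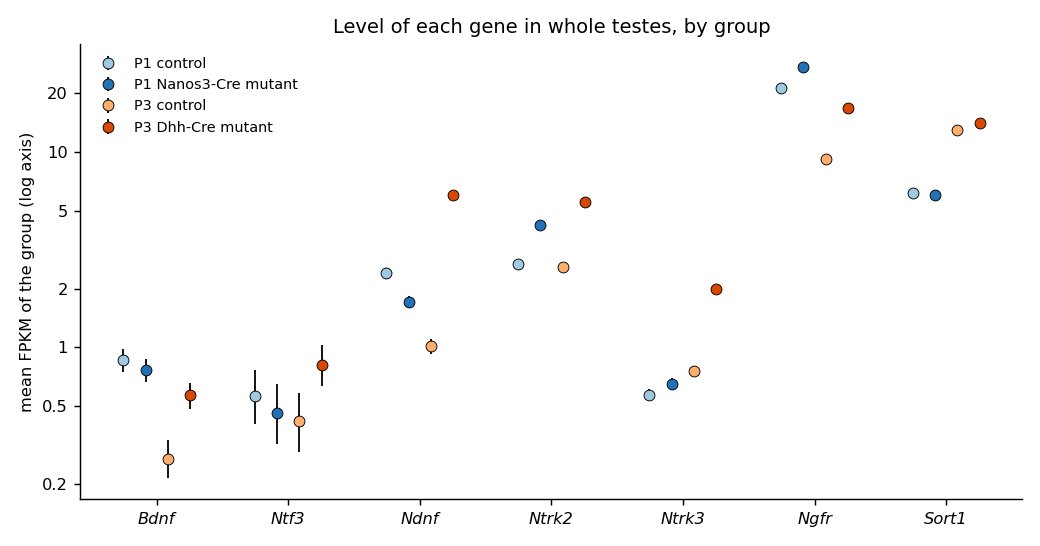
Mean FPKM of each gene (log axis) in the 4 groups, with bars for the 95% counting interval over 4 libraries, which is often smaller than the point and does not show the spread between testes. *Ndnf* had its highest mean in P3 *Dhh-Cre* mutants (6.04 FPKM) and its lowest in P3 controls (1.01 FPKM), and *Ngfr* had its highest in P1 *Nanos3-Cre* mutants (27.2 FPKM).

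*Bdnf* (ENSMUSG00000048482, chromosome 2 of GRCm38 from 109674700 to 109727007, plus strand) was the lowest of the 7 genes at P3. Its mean was 0.859 FPKM in P1 controls, 0.762 in P1 *Nanos3-Cre* mutants, 0.269 in P3 controls and 0.567 in P3 *Dhh-Cre* mutants. P3 controls stood apart as the low group, and P3 mutants lay between them and the P1 groups. The P3 means are 20.2 and 42.5 counts per library, a 2.11-fold difference with a counting interval from 1.61 to 2.78. The mean over both P3 groups, 0.418 FPKM, was below the minimum of 0.5 FPKM set for the comparison with all genes, so *Bdnf* is left out of the counts of genes at P3.

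*Ntf3* (ENSMUSG00000049107, chromosome 6 from 126101412 to 126166910, minus strand) had the fewest reads of the set. Its mean was 0.564 FPKM in P1 controls, 0.462 in P1 mutants, 0.419 in P3 controls and 0.813 in P3 mutants, or 8.49 to 16.8 counts per library. P3 mutants were the high group, at 1.94 times the P3 control mean (counting interval 1.27 to 3.01). *Ntf3* passed the minimum at P3 only through the mutant mean.

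*Ndnf* (ENSMUSG00000049001, chromosome 6 from 65671590 to 65712326, plus strand) had the widest range. Its mean was 2.40 FPKM in P1 controls and 1.71 in P1 mutants. At P3 it was 1.01 FPKM in controls and 6.04 in mutants, which is 123 and 736 counts per library. The 2 control groups and the P1 mutants thus lay within a 2.37-fold range, and P3 mutants lay above all of them. The P3 difference was 5.98-fold (counting interval 5.43 to 6.59), and only 21 of the 16923 genes measured had a larger log2 ratio, which describes the contrast that led to the choice of this gene.

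Among the Trk receptor genes, *Ntrk2* (ENSMUSG00000055254, chromosome 13 from 58806569 to 59133970, plus strand) was higher in the mutants of either age than in their controls. Its mean was 2.66 FPKM in P1 controls, 4.26 in P1 mutants, 2.59 in P3 controls and 5.54 in P3 mutants. The control means of the 2 ages lay close together as deposited, with a ratio of 0.972 whose counting interval, 0.917 to 1.03, includes 1. FPKM were scaled separately at the 2 ages, however. With the median of all genes subtracted the log2 ratio was -0.19 (counting interval -0.27 to -0.105), and with equal summed FPKM it was 0.19. The P3 means are 601 and 1287 counts per library, a 2.14-fold difference (counting interval 2.04 to 2.25). *Ntrk3* (ENSMUSG00000059146, chromosome 7 from 78175959 to 78738012, minus strand) had means of 0.569 FPKM in P1 controls, 0.650 in P1 mutants, 0.757 in P3 controls and 1.998 in P3 mutants. Here P3 mutants alone stood apart, at 2.64 times the P3 control mean (counting interval 2.46 to 2.83, from 275 and 726 counts per library). Both genes make full-length receptors and truncated forms without the kinase domain, and values per gene do not tell these forms apart.

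*Ngfr* (ENSMUSG00000000120, chromosome 11 from 95568818 to 95587735, minus strand) was the highest of the 7 genes in 3 of the 4 groups. Its mean was 21.3 FPKM in P1 controls, 27.2 in P1 mutants, 9.199 in P3 controls and 16.9 in P3 mutants. Both P1 groups were above both P3 groups, and the mutants of each age were above their controls. The P3 difference was 1.84-fold (counting interval 1.73 to 1.96, from 382 and 702 counts per library). *Sort1* (ENSMUSG00000068747, chromosome 3 from 108284082 to 108361511, plus strand) had means of 6.18 and 6.07 FPKM at P1 and of 13.0 and 14.1 FPKM at P3, in controls and mutants. Both P3 groups were above both P1 groups, and the P3 means were 1.08 times apart (counting interval 1.04 to 1.12).

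The order of the levels depends in part on gene length. FPKM fits the whole set of annotated exons, which is 19292 bases for *Ntrk2* against 8744 for its longest coding transcript, and 1.53 times the longest coding transcript for *Ntrk3*. In P3 mutants *Ntrk2*, at 5.54 FPKM, stood below *Ndnf*, at 6.04. Taken over the longest coding transcripts, a choice made after seeing the data, *Ntrk2* came to 12.2 and *Ndnf* to 6.04. Ratios between groups of the same gene are not touched by this. Counting used the strand of the reads, and genes annotated inside these loci were low. Of the 11 such genes, *Gm9885*, which runs antisense to *Ntrk3* and shares no exon base with it, was the highest, with means of 0.400 FPKM in P3 controls and 0.847 in P3 mutants.

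RefSeq start sites on GRCm38.p6 were found for *Bdnf*, *Ntf3*, *Ngfr* and *Ntrk2*, with 11 windows of 250 bases before a start in all, 7 of them for *Bdnf*, which is known for its many promoters. Entries for *Ndnf*, *Ntrk3* and *Sort1* are not used here. LRH1 and its paralog SF1 bind DNA as single molecules at sites such as CAAGGTCA, which holds AGGTCA. Searched on both strands, CAAGGTCA was in 0 of the 11 windows, against 1.33% of all 32851 windows, and the shorter AGGTCA, which lies within it, was in 1, against 14.0% of all. A match is a description of letters and not a site, and its absence from these windows says nothing of the factor. The window with the match, starting 50 bases before a *Bdnf* start, is shown first (chr2:109692777-109693026, plus strand), with the letters AGGTCA in capitals. The *Ntrk2* window (chr13:58806319-58806568, plus strand) is shown because this receptor gene had over 2 times the control mean at P3, and the *Ngfr* window because *Ngfr* was the highest receptor gene at P1, without its last 37 bases, which lie in an annotated exon (chr11:95587736-95587948, minus strand). Both lack the letters and are rich in G and C, at 62.8% and 70.4% over 250 bases, against a median of 52.4% over all windows.
Bdnf: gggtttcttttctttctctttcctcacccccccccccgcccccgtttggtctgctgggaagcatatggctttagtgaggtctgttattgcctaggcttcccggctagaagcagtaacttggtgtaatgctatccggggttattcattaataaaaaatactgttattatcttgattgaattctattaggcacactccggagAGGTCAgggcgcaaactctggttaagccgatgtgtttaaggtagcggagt
Ntrk2: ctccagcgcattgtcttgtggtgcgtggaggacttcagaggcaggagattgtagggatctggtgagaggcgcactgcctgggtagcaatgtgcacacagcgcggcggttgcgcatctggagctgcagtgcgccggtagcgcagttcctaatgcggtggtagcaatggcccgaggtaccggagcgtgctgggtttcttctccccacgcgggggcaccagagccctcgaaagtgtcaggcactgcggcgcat
Ngfr: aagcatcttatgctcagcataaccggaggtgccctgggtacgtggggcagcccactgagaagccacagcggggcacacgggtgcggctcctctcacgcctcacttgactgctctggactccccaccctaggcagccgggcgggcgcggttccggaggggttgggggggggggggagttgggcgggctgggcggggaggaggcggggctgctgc

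To set the genes beside all others at P3, mutant means were divided by control means after 0.1 FPKM had been added to each, on a log2 scale, which makes the ratios of low genes smaller. Only genes that averaged 0.5 FPKM or more across the pair were kept, and the median over these 16923 genes was subtracted. By this measure *Ndnf* (2.47), *Ntrk3* (1.29) and *Ntrk2* (1.07) were 2-fold or more higher, 3 of the 6 members that passed, whereas 4.73% of all genes were. The same contrast led to the choice of these genes, so nothing is read from this count. The log2 ratios of *Ngfr* (0.87), *Bdnf* (0.85), *Ntf3* (0.81) and *Sort1* (0.11) were smaller, and no member was 2-fold lower, against 3.59% of all genes. Over all 7 members the median was 0.87, with 0 for all genes. The call of *Ntrk2* and *Ntrk3* depends on the value added, since with 1 FPKM their log2 ratios were 0.87 and 0.77 and *Ndnf* alone, at 1.81, stayed past 2-fold. That of *Ntrk3* depends on the minimum too, since its mean over both groups was below 2 FPKM, the stricter minimum tried.

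**Figure D2:**
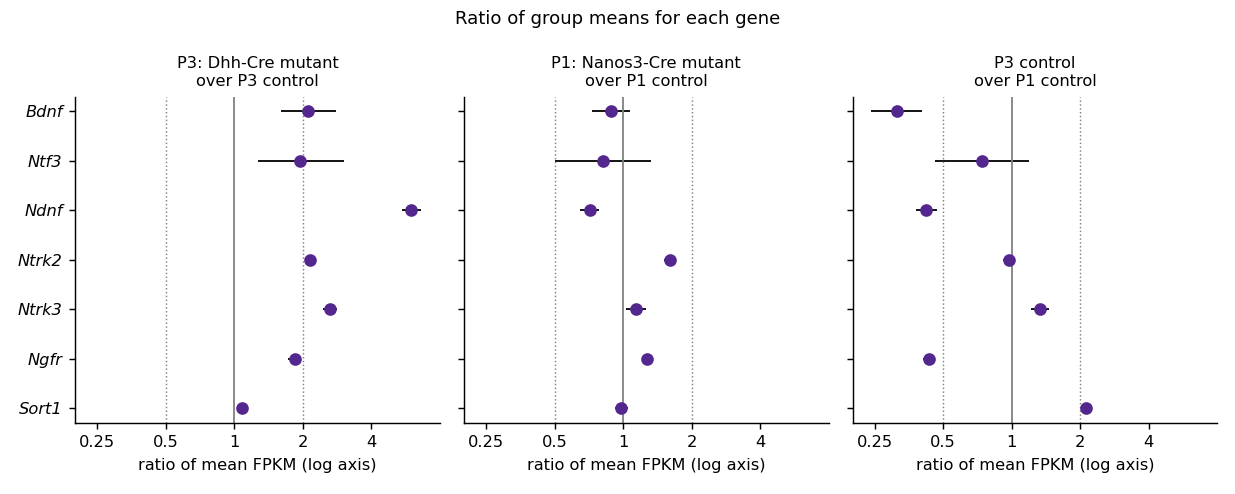
Ratio of mean FPKM (log axis) for each gene in 3 comparisons, with bars for the 95% counting interval and dotted lines at 2-fold. All points lie above 1 at P3, with *Ndnf* at 5.98, and at P1 they run from 0.715 (*Ndnf*) to 1.60 (*Ntrk2*).

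Marker genes of several cell types differed at P3 as well. These are means over whole testes, in which fewer cells of a type and less RNA per cell cannot be told apart. For Sertoli cells, the paper separately reports from counts on sections that these mutants had fewer of them at P3. Of 18 Sertoli cell markers 17 were lower in mutants relative to all genes, with a median log2 ratio of -1.34 and a summed level of 2021 FPKM in controls against 799.8 in mutants. No gene of the neurotrophin set had a lower mean, but the same contrast led to the choice of this set, so nothing is read from this. All 10 markers of interstitial mesenchyme were higher, with sums of 1112 and 2386 FPKM and a median of 1.00. All 7 markers of mesothelium were higher too, with sums of 74.9 and 177 FPKM and a median of 1.279, as were all 8 macrophage markers (54.9 and 119 FPKM, median 0.99) and all 8 endothelial markers (51.3 and 77.5 FPKM, median 0.78). Median log2 ratios were smaller for Leydig cell (0.45, sums of 364 and 585 FPKM), mural cell (0.41, 111 and 103 FPKM), peritubular myoid (0.36, 237 and 316 FPKM) and germ cell markers (-0.11, 137 and 127 FPKM). The log2 ratios of *Ngfr*, *Bdnf*, *Ntf3*, *Ntrk2* and *Ntrk3* lay among those of these markers. That of *Ndnf*, 2.47, lay above the highest marker of any list, *Lum* of the mesenchyme list, at 1.64. The part of these cell types in the values of the neurotrophin set was not tested.

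Nerve tissue was looked at in the same way, since these factors are best known from neurons and glia. Of 10 Schwann cell markers 9 were in the table, with a summed level of 114 FPKM in P3 controls and 162 in mutants, most of it from *Pmp22*, a gene that many other cells express (72.8 and 124 FPKM). *Mbp*, which encodes a myelin protein, had a lower mean in mutants, at 3.01 against 4.57 FPKM. *Sox10*, which directs Schwann cell fate, had means of 0.991 FPKM in controls and 1.51 in mutants. Neuron markers summed to 33.1 and 18.9 FPKM, most of it *Tubb3*, a tubulin gene also known from Sertoli cells (29.2 and 11.4 FPKM). Of the 10 genes 7 were higher in mutants relative to all genes and 3 lower, and the 5 that passed the minimum had a median log2 ratio of 1.16. *Stmn2*, *Nefl* and *Syt1* were over 2-fold higher, at means of up to 2.36 FPKM, with *Stmn2* past the minimum only through the mutants, while *Snap25* (0.162 and 0.119 FPKM) and *Elavl4* (0.401 and 0.330 FPKM) had lower means. Of the 9 Schwann cell markers 6 passed the minimum. No neuron or Schwann cell marker in the table was at 0 at P3, but some were near it, such as *Egr2* (0.018 and 0.006 FPKM) and *Cdh19* (0.014 and 0.190 FPKM). The part of neurons and Schwann cells in the values of the neurotrophin set was not tested.

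**Figure D3:**
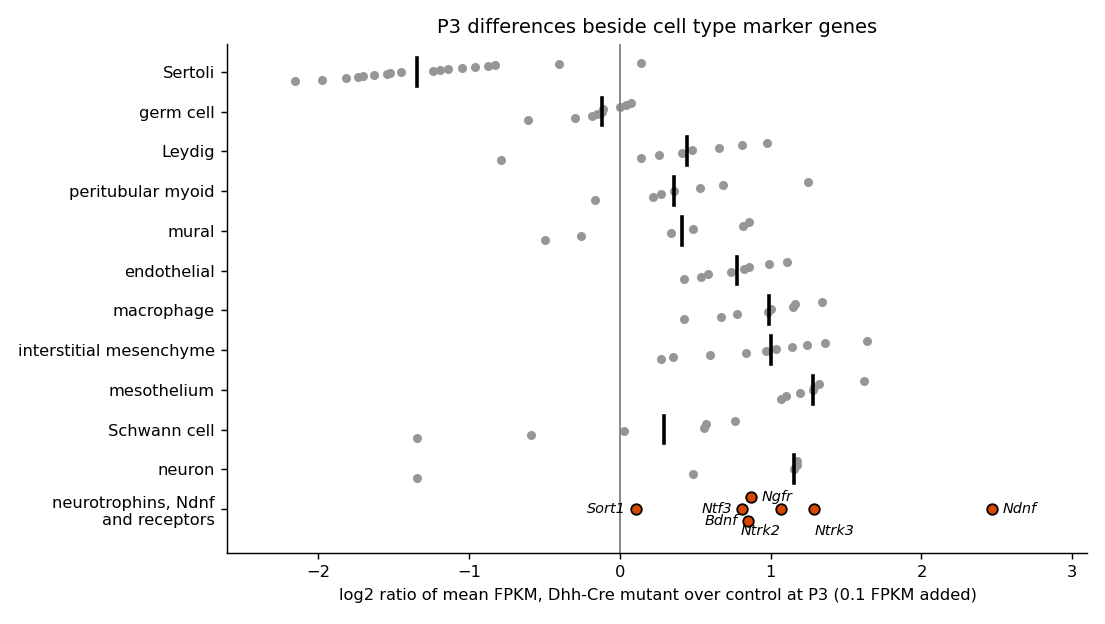
Log2 ratio of P3 means, mutant over control with 0.1 FPKM added and relative to all genes, for single marker genes of 11 cell types (grey points, black bar at the median) and for the neurotrophin set (orange). *Ndnf* (2.47) lies to the right of every marker, *Sort1* (0.11) lies near 0, and the Sertoli cell markers lie to the left with a median of -1.34.

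Other genes of the pathway were taken from a list of 39, of which 38 were in the table and 34 passed the minimum at P3. Of these, 3 were 2-fold or more higher in *Dhh-Cre* mutants and 1 was 2-fold or more lower, where 4.73% of all genes were higher and 3.59% lower. The share higher was above that of all genes and the share lower slightly below it. Nothing is read from counts this small. Across the 34 genes the log2 ratios had a median of -0.08. *Sorl1*, which encodes a sorting receptor of the sortilin family, had means of 161 counts per library in controls and 515 in mutants, a log2 ratio of 1.60. *Slitrk5*, which encodes a transmembrane protein that modulates TrkB, had means of 3.83 and 8.32 FPKM (1.10). *Mmp7*, whose protease can cleave neurotrophin precursors, had means of 0.301 and 0.780 FPKM (1.13), at no more than 10.04 counts per library, and passed the minimum only through the mutant mean. The lower gene was *Islr2*, which encodes a partner of Trk receptors in developing neurons, with means of 46.0 and 15.4 FPKM (-1.58), a ratio in the range of the Sertoli cell markers. *Ntf5*, which encodes NT-4, another ligand of TrkB, had means of 10.9 and 7.71 FPKM (-0.49) and thus stood above *Bdnf* and *Ntf3* in level. The 12 adaptor and effector genes of Trk signalling that passed had log2 ratios from -0.49 to 0.51, and the 8 genes of p75 partners from -0.31 to 0.17, so none reached 2-fold.

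**Figure D4:**
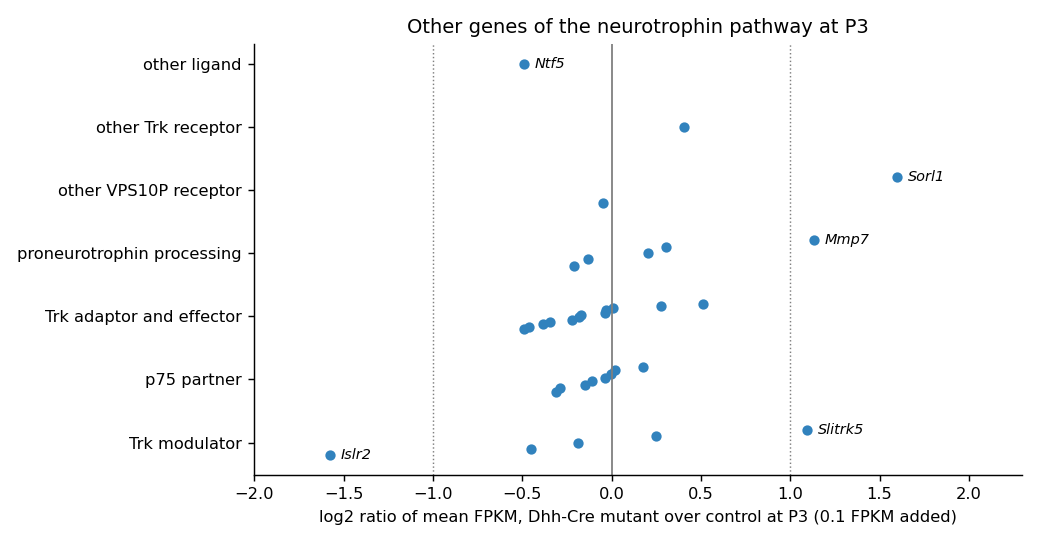
Log2 ratio of P3 means, mutant over control with 0.1 FPKM added and relative to all genes, for the 34 other pathway genes that passed the minimum, by role, with dotted lines at 2-fold. *Sorl1* (1.60), *Mmp7* (1.13) and *Slitrk5* (1.10) lie beyond the upper line and *Islr2* (-1.58) beyond the lower one, while Trk adaptors and p75 partners lie between the lines.

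In germ cell mutants at P1 no member was 2-fold higher or lower, where 1.15% of 16121 genes were higher and 1.43% lower. *Ntrk2* differed most, with a mean 1.60 times that of controls (counting interval 1.52 to 1.69, from 550 and 880 counts per library) and a log2 ratio above those of 97.6% of genes. *Ngfr* had a mean 1.276 times that of controls (1.22 to 1.34) and *Ntrk3* 1.14 times (1.03 to 1.26). Among the receptor genes, *Ntrk2*, *Ntrk3* and *Ngfr* had higher means in the mutants of both ages, and *Sort1* a slightly lower one in P1 mutants (6.07 against 6.18 FPKM). The P3 contrast led to the choice of these genes, so nothing is read from this. *Ndnf* had a lower mean in P1 mutants, with a control mean 1.40 times that of mutants (1.27 to 1.54), in contrast to its higher mean in P3 mutants. For *Bdnf*, *Ntf3* and *Sort1* the counting intervals of the P1 ratio included 1. Whether the P1 and P3 differences of a gene differ from each other was not tested, since both rest on group means.

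At P1, too, markers of other cells differed. The 8 macrophage markers were all higher in *Nanos3-Cre* mutants (sums of 58.3 and 88.8 FPKM, median log2 ratio 0.58), and so were the 7 mesothelium markers (68.6 and 92.0 FPKM, median 0.35). Of 9 germ cell markers that passed, 8 were lower (sums over 10 markers of 49.4 and 30.7 FPKM, median -0.55), as were 6 of 7 peritubular myoid markers (248 and 200.5 FPKM, median -0.49). The Sertoli cell list was split, with 10 higher and 8 lower and a median of 0.07. Medians were also small for interstitial mesenchyme (0.13, 9 of 10 higher), endothelial (0.05, 7 of 8), mural (0.15, 4 of 6) and Leydig cell markers (0.04, 6 of 8). All 6 Schwann cell markers that passed were lower (median -0.13). Of the neuron markers that passed, 2 were higher and 2 lower (median 0.08). The part of these cells in the values of *Ntrk2*, *Ngfr* and *Ndnf* was not tested. None of the 33 other pathway genes that passed at P1 was 2-fold higher or lower, and their median was 0.11. Relative to all genes 26 of them were higher and 7 lower.

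Control testes of the 2 ages were also set side by side, as values only. The ages differ in *Lrh1* genotype as well, and 3 of 4 P1 controls were made from 500 ng of RNA and all P3 controls from 400 ng, so that age, genotype and library making cannot be told apart. FPKM were scaled separately at the 2 ages, and the median log2 ratio of 16521 genes, P3 over P1, was 0.15, which was subtracted. *Bdnf* (-1.53), *Ngfr* (-1.35) and *Ndnf* (-1.32) were 2-fold or more lower at P3, 3 of the 6 members that passed, against 5.41% of all genes. *Bdnf* passed only through its P1 mean. The P3 control means are part of the contrast that led to the choice of these genes, so nothing is read from this count. *Sort1* (0.92) had the largest positive ratio, and no member was 2-fold higher, against 4.71%. The calls depend on the scaling, since with equal summed FPKM *Ndnf* and *Ngfr* came to -0.94 and -0.96, *Sort1* to 1.31, and *Ntrk2* turned from -0.19 to 0.19. Over all genes 778 were 2-fold higher and 894 lower, against 1848 and 405 with equal summed FPKM and 1050 and 643 without the median subtracted. Among markers, 16 of 18 Sertoli cell genes were higher at P3 (sums of 1566 and 2021 FPKM, median 0.53), and 9 of 10 interstitial mesenchyme genes were lower (1189 and 1112 FPKM, median -0.39). All 8 Leydig cell genes (sums of 897 and 364 FPKM) and all 8 endothelial genes (77.0 and 51.3 FPKM) were lower at P3, and all 9 germ cell genes that passed were higher (sums over 10 of 49.4 and 137 FPKM), and their part in the values of the neurotrophin set was not tested. These comparisons share the P3 controls with the *Dhh-Cre* comparison and the P1 controls with the *Nanos3-Cre* one. The genes that were low in P3 controls against P1 controls and high in P3 mutants against the same P3 controls, *Bdnf*, *Ndnf* and *Ngfr*, are therefore given by their 4 means above and not counted as an overlap.

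The genes whose 4 means ran most like those of *Ndnf* were looked up last. Among the 14254 genes that averaged 1 FPKM or more over the 4 groups, the distance between centred log2 means was smallest for *Angpt4*, which encodes an angiopoietin, at 0.51, then for *Gria4*, a glutamate receptor subunit gene, at 0.58, and for *Gm45456* at 0.62. *Ntrk2* had closer neighbours, with *Gm25926* at 0.08, *Wnt2b*, a WNT ligand gene, at 0.10 and *Ctss*, which encodes a lysosomal protease abundant in macrophages, at 0.11. *Ctss* had means of 1.93 and 3.15 FPKM at P1 and of 1.77 and 4.25 FPKM at P3, in controls and mutants. The nearest gene to *Ngfr* was *Lbx2*, a homeobox gene, at 0.05, with means of 3.51, 4.61, 1.55 and 2.81 FPKM in P1 controls, P1 mutants, P3 controls and P3 mutants, followed by the pseudogenes *Oaz2-ps* and *Mrpl23-ps1* at 0.13 each. With 4 means to compare, a small distance says only that these means run alike.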

How the data were processed

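Stranded mRNA libraries of 16 whole testis samples in 4 groups of 4 were sequenced by the authors. As the paper's methods and the processing notes state, the authors trimmed reads with Trim Galore 0.6.0 and cutadapt 1.18, mapped them with STAR 2.7.2a to GRCm38 (mm10), counted them by gene and strand on GENCODE M25 with RSubread and tested groups with DESeq2. The FPKM values deposited are the authors' mean of each group for 35983 genes. Deposited tables of called genes also hold a mean normalized count per gene, used here as a signal of depth, and the authors' fold changes and p-values, which are not used. The samples behind these mean counts are not given in the sources used here.

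Groups come from the sample titles. Gene lengths and positions are from GENCODE M21 on GRCm38, which holds 99.7% of the gene IDs. Counts per library are FPKM times length times the median count per FPKM and kilobase, intervals are exact Poisson for a mean and exact binomial for a ratio, and log2 ratios use 0.1 FPKM added and a minimum mean of 0.5 FPKM. A test with limma had been planned for values per sample and was not run. Members, gene lists and the rule for named genes (the 7 members, pathway genes past 2-fold, the 3 genes nearest to *Ndnf*, *Ntrk2* and *Ngfr*, and *Nr5a2* and *Nr5a1*) were chosen with earlier results of these data known. Named beside the rule after their values were seen were *Ntf5*, *Gm9885* and the single marker genes. Results for some genes are not reported here. Promoter sequences are from RefSeq. The ratios and intervals were tried on data simulated with counting error only, with changes planted in genes with a control mean of 2 FPKM or more. Such data hold no spread between libraries, so they say nothing of error between testes or of genes at lower levels. The code used scipy 1.17.1, pandas 2.3.3 and numpy 2.4.6 under Python 3.11.15, with matplotlib 3.10.9 for plots. Alternatives were other values added, minimum means, fold limits and scalings.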

Additional observations from a re-analysis of the deposited data

How the results depend on the processing

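No paired analysis was possible because the columns are group means and carry no replicate, and leaving out replicates could not be run for the same reason. Log2 ratios of single members were taken 84 times under another value added or another scaling. Of these, 64 moved by less than 0.5 times the width of their counting interval and 20 moved by more. None that was past 2-fold changed sign. *Sort1* at P1 (0.02) and *Ntrk2* between ages (0.19) changed sign with equal summed FPKM. The count of members 2-fold higher at P3, 3, was 1 with 1 FPKM added, 5 at a fold limit of 1.5, 1 at a limit of 3 and 2 at a minimum of 2 FPKM (without *Ntrk3*). The count of pathway genes higher at P3, 3, was 1 with 1 FPKM added, 1 at a limit of 3 and 2 at a minimum of 2 FPKM (without *Mmp7*), and that of lower ones, 1, was 0 at a limit of 3. At P1, where both counts were 0, a limit of 1.5 gave 1 member higher (*Ntrk2*) and no minimum gave 1 pathway gene higher (*Mmp7*). Between control ages, the 3 members lower at P3 were 1 with 1 FPKM added, 1 at a minimum of 2 FPKM, 0 at a limit of 3 and 1 with equal summed FPKM. The count of members higher there, 0, was 1 (*Sort1*) with no minimum, at a limit of 1.5, without subtracting the median and with equal summed FPKM. Over all genes, the counts 2-fold higher and lower were 801 and 608 at P3, 185 and 231 at P1 and 778 and 894 between ages. With 1 FPKM added they were 289 and 293, 56 and 55, and 270 and 428, at a limit of 1.5 they were 2103 and 1415, 474 and 583, and 2039 and 2402, and at a limit of 3 they were 149 and 189, 64 and 69, and 281 and 276. With no minimum they were 1796 and 1406, 892 and 1152, and 2145 and 1855, and at a minimum of 2 FPKM they were 420 and 326, 45 and 45, and 307 and 454. Depth limits *Ntf3*, *Bdnf* and *Mmp7* most, and the spread between testes is not known for any gene.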
